A study of Mus musculus with 4 samples.

Results

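Conventional Ly49+ NK cells were chosen from single-cell RNA-seq of immune cells sorted from B16-F10 melanomas, by raw counts of transcripts marked with unique molecular identifiers (UMIs). A cell was taken when it had at least 2 UMIs of *Ncr1* and *Klrb1c* together, at most 1 of *Cd3d*, *Cd3e* and *Cd3g*, at most 2 of *C1qa*, *C1qb* and *C1qc*, fewer than 5 of *Gzmc*, and at least 2 of *Klra8*, *Klra4* and *Itga2*. Of 8822 kept cells, 1348 were Ly49+ NK cells, 1298 of 4699 in the ZsG-negative and 50 of 4123 in the ZsG-positive library. The values that chose them are given below as a description only.

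NK cells are innate lymphocytes that kill stressed or transformed cells with perforin and granzymes and that secrete chemokines and interferon gamma. In mice they read MHC class I on their targets through the Ly49 receptors, encoded by the *Klra* genes, and through CD94/NKG2 receptors, and each cell switches on only some of the Ly49 genes. Conventional NK cells depend on the transcription factor Eomes and carry the integrin CD49b (*Itga2*), whereas the related type 1 innate lymphoid cells (ILC1) stay in tissues and carry CD49a (*Itga1*).

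All cells came from wild-type C57BL/6 mice that carried subcutaneous tumors of 1 single-cell clone of B16-F10, chosen for its brightness, in which doxycycline induces the cytoplasmic green fluorescent protein ZsGreen (ZsG). The mice drank doxycycline for 4 days, and tumors were taken at day 8. CD45+ cells were sorted by ZsG through a negative and a positive gate, to ask which immune cells take up tumor material. Each gate gave 1 library, so no difference between the gates has a replicate check. The ZsG-positive gate held the bright cells, and lymphocytes that had gained less ZsG fell into the ZsG-negative gate.

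The Ly49+ NK cells held 6871618 UMIs in the ZsG-negative and 216417 in the ZsG-positive library, with medians of 4503.5 and 3594.5 UMIs and 1682 and 1434.5 genes per cell. Levels are UMIs of a gene per 1000000 UMIs summed over the cells (CPM), from the 3′ ends of transcripts, so they are not divided by gene length. All intervals are exact 95% intervals and cover counting error only, not differences between tumors. Those of CPM and of ratios of CPM treat each UMI as independent, so they also leave out the spread between cells. The smallest level that 3 UMIs can show was 0.437 CPM in the ZsG-negative and 13.9 CPM in the ZsG-positive Ly49+ NK cells. The libraries shared 6 cell barcodes, 5 of them among kept cells, and no barcode was a Ly49+ NK cell in both.

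The other cells that passed the *Ncr1*, CD3 and C1q limits, called other NK/ILC cells here, numbered 771 in the ZsG-negative and 34 in the ZsG-positive library. They were split into Ly49-negative cells without a UMI of *Klra8*, *Klra4* or *Itga2* (387 and 19), one-UMI cells (171 and 13) and *Gzmc*-high cells (213 and 2). The *Gzmc*-high cells were much deeper, with a median of 11493 UMIs in the ZsG-negative library, against 4457 in Ly49-negative and 4319 in one-UMI cells. *Gzmc*-high cells held 2815140 of the 5731103 UMIs of other NK/ILC cells in that library, and 23801 of 177012 in the ZsG-positive library. Ly49+ NK cells were the largest of these classes, with 62.7% (60.6 to 64.8) of NK/ILC cells in the ZsG-negative library and 59.5% (48.3 to 70.1) in the ZsG-positive library.

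Of the 6 markers given for these cells, the rule used *Ncr1*, *Klra4*, *Klra8* and *Itga2*, so their levels follow from the choice of cells. *Ncr1*, which encodes the activating receptor NKp46, was at 440 CPM in the ZsG-negative and 402 CPM in the ZsG-positive Ly49+ NK cells. *Klra4* (Ly49D, an activating receptor; chromosome 6, 130043731 to 130067271, minus strand, GRCm38) was at 1064 and 878 CPM, and *Klra8* (Ly49H, the activating receptor for a cytomegalovirus protein; chromosome 6, 130115226 to 130129898, minus strand) at 675 and 693 CPM. *Itga2* was at 104 and 83.2 CPM. The remaining markers, which the rule did not use, were both present. *Eomes* was at 238 and 162 CPM, and *Gzma*, the tryptase granzyme A (chromosome 13, 113093825 to 113100981), at 6945 and 5332 CPM.

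Of the ZsG-negative Ly49+ NK cells, 605 (46.6%) had UMIs of both *Klra4* and *Klra8*, 330 (25.4%) of *Klra4* without *Klra8* and 324 of *Klra8* without *Klra4*. *Itga2* alone brought in 39 cells (3.00%). In the ZsG-positive library the corresponding cells were 25, 11, 12 and 2 of 50. The Ly49 genes thus chose nearly all cells. *Itga2* was found in 36.6% of them in the first library and in 24% in the second.

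**Figure D1:**
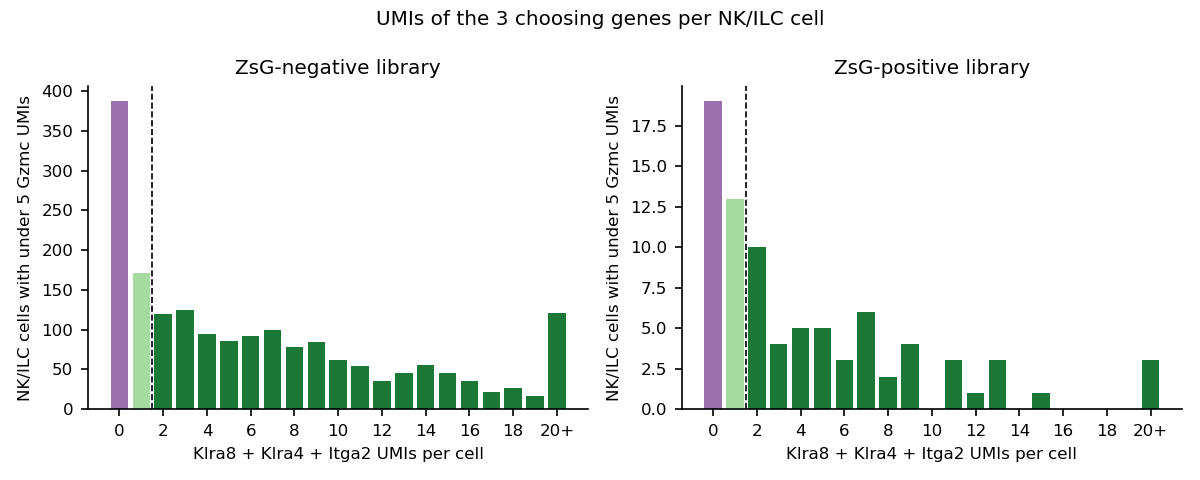
Number of NK/ILC cells with fewer than 5 *Gzmc* UMIs (y axis, linear, scaled apart in each panel) by their summed *Klra8*, *Klra4* and *Itga2* UMIs (x axis, 20 or more in the last bar), in the ZsG-negative (left) and ZsG-positive (right) library; the dashed line is the limit of 2 UMIs, with Ly49+ NK cells in dark green. In the ZsG-negative library 387 cells had 0, 171 had 1, 120 had 2 and 121 had 20 or more, with no gap at the limit.

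The limit cut through a continuous range. ZsG-negative cells just inside it, with 2 UMIs (120 cells), had *Klrc1* at 225 CPM, *Klrb1b* at 361 CPM and *Il7r* at 37.0 CPM. Cells just outside, with 1 UMI (171 cells), had these genes at 228, 357 and 63.7 CPM, and cells well inside, with 3 or more UMIs (1178 cells), at 108, 149 and 11.7 CPM. The cells at the limit were therefore alike on both sides for *Klrc1* and *Klrb1b*, and nearer to each other than to the cells well inside. *Gzma* was at 8908 CPM just inside, 6768 CPM well inside and 7137 CPM just outside. At the limit on *Gzmc*, 8 cells just inside with 4 UMIs had *Gzma* at 5498 and *Eomes* at 308 CPM, and 19 cells just outside with 5 to 9 UMIs had them at 6033 and 170 CPM.

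Without mitochondrial and ribosomal protein genes, the genes with most UMIs in ZsG-negative Ly49+ NK cells were *Malat1* (19771 CPM), *Tmsb4x* (17723 CPM), *Gm42418*, *Tpt1* and *Gzma*. The chemokine gene *Ccl5* (6037 CPM), the noncoding RNA *AW112010* (6687 CPM), the MHC class I gene *H2-K1* (3279 CPM), the signalling adaptors *Tyrobp* (2749 CPM) and *Fcer1g* (2019 CPM) and the granule membrane gene *Nkg7* (2379 CPM) were among the first 25. Adaptors and granule genes of NK cells thus stood beside genes that all cells use.

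Single cells differed widely in their effector genes. *Gzma* had a UMI in 1267 of the 1298 ZsG-negative Ly49+ NK cells, and its level per cell ran from 0 over a median of 6067 to 43659 CPM. *Ccl5* ran from 0 over 4737 to 56322 CPM. For the chemokine gene *Xcl1*, whose product attracts cross-presenting dendritic cells, the median was 310 CPM and the highest cell 70514 CPM, and 65 cells held 46.7% of its UMIs. *Ccl4*, another chemokine gene, was more uneven still, with a median of 0, a highest cell at 99777 CPM and 59.8% of its UMIs in 65 cells. The lectin gene *Klrd1* (CD94) was even by comparison, with a median of 1066 CPM and 15.3% of its UMIs in 65 cells.

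The first comparison asked how Ly49+ NK cells differed from the other NK/ILC cells of the ZsG-negative library. They were higher for *Gzma*, *Ccl5*, *Eomes*, *Klra7* and *Klra9*, each by less than 2-fold and with an interval above 0. They were lower for ILC1 genes such as *Cxcr6*, *Tmem176b* and *Il7r*, for *Klrc1* and *Klrb1b*, and for cell cycle genes. Of 9124 genes with at least 50 UMIs, 70 (0.767%) were higher and 259 (2.84%) lower by more than 2-fold, and the median log2 ratio of all genes was 0.03. List counts over all others below are to be read beside these shares. With 1 library no gene was tested, and the 12 genes of the rule were left out of all counts. The comparisons with each class below share the same Ly49+ NK cells and are given side by side.

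Of the Ly49 receptors that the rule did not use, few were past 2-fold. Of 11 listed genes, 6 could be counted, with a median log2 ratio of 0.49 against 0.03 for all genes, and 1 was past 2-fold. *Klra7* (Ly49G) was at 402 CPM in Ly49+ NK cells, 376 CPM in one-UMI, 267 CPM in Ly49-negative and 296 CPM in *Gzmc*-high cells, a log2 ratio of 0.44 (0.35 to 0.52) over all others. *Klra9* (Ly49I, an inhibitory receptor) was at 308, 344, 199 and 185 CPM in the same order, and *Klra3* (Ly49C, inhibitory) at 186, 165, 109 and 147 CPM. *Klra1* (Ly49A, inhibitory) was at 105 CPM against 49.3 CPM in Ly49-negative cells, a log2 ratio of 1.08 (0.78 to 1.40), but at 110 CPM in one-UMI cells. The gene past 2-fold was *Klra5*, at 1.01 (0.34 to 1.71) from 65 UMIs. These genes lie beside *Klra4* and *Klra8* on chromosome 6, *Klra7* at 130218605 to 130233322 and *Klra1* at 130363917 to 130386874. In the last 400 bases of their transcripts, no 90-base window of *Klra1*, *Klra4*, *Klra7* or *Klra8* occurred in another gene, against 6.03% of the windows of *Klra3* and 1.44% of *Klra9*, so reads of the last pair could in part be ambiguous.

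To compare shares of cells at 1 depth, each cell was thinned to 2000 UMIs, which left out 2 of the 1298 and 1 of the 387 cells. *Klra7* then had a UMI in 41.8% (39.1 to 44.6) of ZsG-negative Ly49+ NK cells and in 26.2% (21.8 to 30.9) of Ly49-negative cells, and before thinning in 58.3% and 36.7%. *Klra9* was found in 33.2% and 22.02%, *Klra3* in 23.5% and 13.7%, and *Klra1* in 11.2% and 5.96%. T cells of the same library were deeper, at a median of 7672 UMIs, and were chosen without a UMI of *Ncr1* or *Klrb1c*, here and below. Such a choice leaves out T cells with these NK receptor genes. In the T cells the shares were 12.1% for *Klra7*, 2.35% for *Klra9*, 1.95% for *Klra3* and 5.03% for *Klra1*. The share for *Klra1* in Ly49-negative cells was hence near that of T cells. The cells called Ly49-negative here lacked UMIs of *Klra8*, *Klra4* and *Itga2*, and many of them had other Ly49 genes.

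Counted per cell over *Klra1*, *Klra3*, *Klra7* and *Klra9*, 24.2% (21.9 to 26.7) of ZsG-negative Ly49+ NK cells had none, 46.1% had 1, 25.6% had 2, 4.01% had 3 and 0.0772% (1 cell) had all 4. Among Ly49-negative cells 47.7% (42.6 to 52.8) had none. The combinations were not even. *Klra1* was found in 5.92% (3.55 to 9.20) of Ly49+ NK cells with a *Klra3* UMI and in 12.8% (10.8 to 15.04) of those without, and in 7.44% (5.15 to 10.3) with and 13.05% (10.9 to 15.5) without a *Klra9* UMI. For *Klra7* the order was the other way, at 51.0% (42.6 to 59.4) with and 40.7% (37.8 to 43.6) without *Klra1*, where the intervals touch. *Klra3* was at 21.6% with and 24.4% without *Klra9*, which did not differ beyond counting error. In the 50 ZsG-positive Ly49+ NK cells, 24% had none of the 4 genes, 42% had 1, 32% had 2 and 2% had 3.

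**Figure D2:**
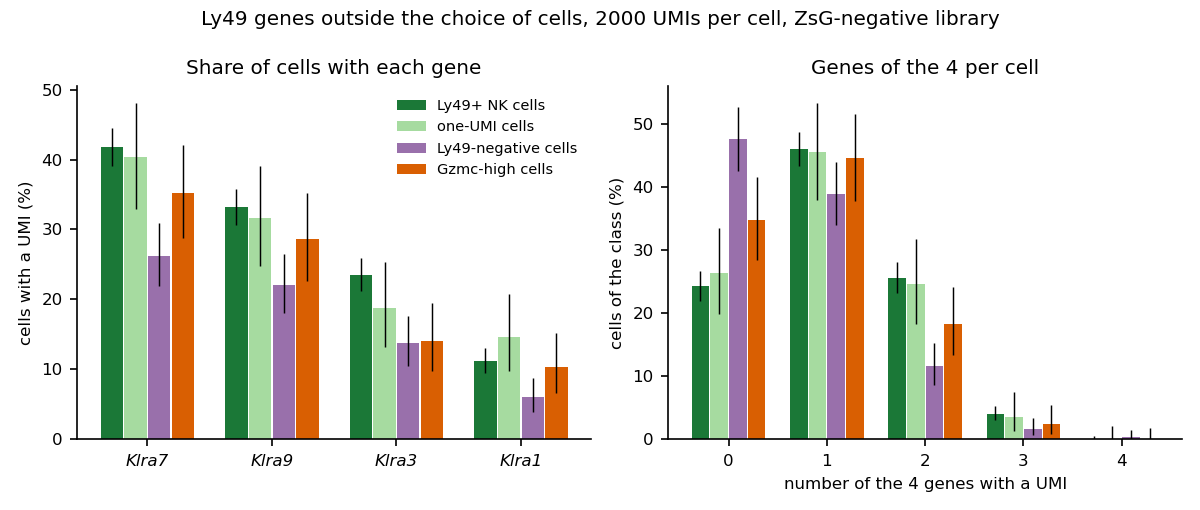
Left, share of cells (%, linear axis from 0) with a UMI of *Klra7*, *Klra9*, *Klra3* or *Klra1*; right, share of cells (%) by how many of these 4 genes had a UMI; ZsG-negative library, each cell thinned to 2000 UMIs, bars by class, lines exact binomial 95% intervals (counting error only). Ly49+ NK cells were above Ly49-negative cells for each gene, and the share with none of the 4 was 24.2% against 47.7%.

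Among CD94/NKG2 receptors, *Klrc1* was lower than in Ly49-negative cells and level with *Gzmc*-high cells. *Klrc1*, which encodes the inhibitory receptor NKG2A, was at 118 CPM in Ly49+ NK cells, 303 CPM in Ly49-negative, 228 CPM in one-UMI and 120 CPM in *Gzmc*-high cells, a log2 ratio of -1.37 (-1.52 to -1.21) over Ly49-negative cells. It had a UMI in 17.7% (15.7 to 19.9) of thinned Ly49+ NK cells and 42.7% (37.8 to 47.9) of Ly49-negative cells, 30.3% and 64.3% before thinning. *Klrd1*, its partner chain, was at 1119 and 1126 CPM in these classes, a log2 ratio of -0.01 (-0.08 to 0.06). *Klrk1* (NKG2D, which binds stress ligands) was at 806 and 819 CPM. *Klrc1* shared 30.6% of its 90-base end windows with its neighbour *Klrc2*, so its reads can be ambiguous. *Klrc2* itself was at 150 and 153 CPM. Of the 7 counted genes of this list, 0 were higher and 1, *Klri1* from few UMIs, was lower past 2-fold, with a median log2 ratio of 0.25.

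The NKR-P1 family held a gene of the same pattern. *Klrb1b* (NKR-P1B, an inhibitory lectin-like receptor) was at 167 CPM in Ly49+ NK cells, 357 CPM in one-UMI cells, 443 CPM in Ly49-negative and 164 CPM in *Gzmc*-high cells, a log2 ratio of -1.41 (-1.54 to -1.28) over Ly49-negative cells. After thinning, 24.9% (22.6 to 27.4) of Ly49+ NK and 56.2% (51.1 to 61.2) of Ly49-negative cells had a UMI, against 1.05% of T cells. The T cells were chosen without a UMI of *Klrb1c* or *Ncr1*, so they are no baseline for all T cells. *Klrb1a* (128 and 138 CPM) and *Klrb1f* (171 and 188 CPM) were at like levels in Ly49+ NK and Ly49-negative cells. Ly49+ NK and Ly49-negative cells were thus apart for *Klrc1* and *Klrb1b*, and the *Gzmc*-high cells had them at the level of Ly49+ NK cells.

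Activating receptors and adaptors were mostly level, with 1 of 18 counted genes higher and 1 lower and a median log2 ratio of 0.15. *Slamf6*, a self-ligand receptor of the SLAM family, was at 18.2 CPM in Ly49+ NK cells against 6.77 CPM in Ly49-negative and 3.55 CPM in *Gzmc*-high cells, a log2 ratio of 1.75 (1.17 to 2.37) over all others. *Cd226* (DNAM-1, an activating receptor for nectin-like ligands) was at 38.9 CPM against 119 CPM in Ly49-negative cells, a log2 ratio of -1.62 (-1.88 to -1.36). The adaptor genes *Tyrobp*, *Fcer1g* and *Hcst* differed from Ly49-negative cells by log2 ratios of 0.14, -0.01 and 0.08.

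Of 10 counted inhibitory receptors, 1 was higher and 4 lower than in all others, with a median log2 ratio of -0.74. Of all genes, 0.767% were higher and 2.84% lower in this comparison. *Lag3* was at 5.68 CPM in Ly49+ NK cells and 21.7 CPM in *Gzmc*-high cells, and *Ctla4* at 16.01 and 43.0 CPM. Both encode checkpoint receptors. *Klrg1*, a receptor of late NK cells, was at 24.4 CPM in Ly49+ NK, 21.3 CPM in Ly49-negative and 134 CPM in *Gzmc*-high cells, so its log2 ratio of -1.66 over all others came with 0.20 (-0.29 to 0.71) over Ly49-negative cells alone. The checkpoint receptor gene *Pdcd1* was at 3.35 CPM, against 254 CPM in T cells of the same library.

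Granule genes divided the classes unevenly. *Gzma* was at 6945 CPM in Ly49+ NK, 7137 CPM in one-UMI, 4733 CPM in Ly49-negative and 3844 CPM in *Gzmc*-high cells, a log2 ratio of 0.58 (0.56 to 0.60) over all others. *Gzmb* (granzyme B) and *Prf1* (perforin) were higher than in Ly49-negative cells, at log2 ratios of 0.43 (0.36 to 0.50) and 0.46 (0.37 to 0.56), and lower than in *Gzmc*-high cells, with 1208 against 1630 CPM and 790 against 1226 CPM. *Gzma* had a UMI in 95.1% (93.8 to 96.2) of thinned Ly49+ NK cells, 80.8% (76.5 to 84.6) of Ly49-negative cells and 11.8% of T cells. *Cma1*, which encodes a chymase known from mast cells (chromosome 14, 55941451 to 55944675), had the highest ratio among genes found in at least 5% of the cells of 1 side. It was at 34.6 CPM against 23.6 CPM in one-UMI, 9.67 CPM in Ly49-negative and 1.07 CPM in *Gzmc*-high cells, a log2 ratio of 2.21 (1.73 to 2.71). Only 149 of the 1298 cells had a *Cma1* UMI. Over the whole list, 2 of 19 genes were higher, 1 was lower and the median was 0.00.

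The rule kept *Gzmc* low, and the neighbouring granzyme genes were low too. *Gzmd* was at 2.47 CPM in Ly49+ NK cells and 427 CPM in *Gzmc*-high cells, and *Gzme* at 0.728 and 196 CPM. All 4 counted genes of this cluster were lower past 2-fold than in the other NK/ILC cells. In the last 400 bases of their transcripts, *Gzmc*, *Gzmd* and *Gzme* had 0 of 311 90-base windows in common with another granzyme gene.

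Genes of ILC1 and tissue residence were lower in many cases, 0 of 18 higher and 9 lower than in all others (median -1.07), and 0 of 17 higher and 8 lower than in Ly49-negative cells (median -0.91). Against Ly49-negative cells, 0.784% of 8422 genes were higher and 1.12% lower past 2-fold. *Cxcr6*, a chemokine receptor of resident lymphocytes, was at 2.04 CPM against 25.1 CPM in Ly49-negative cells, a log2 ratio of -3.63 (-4.59 to -2.75). *Tmem176b*, a membrane protein gene, was at 6.11 against 61.4 CPM (-3.33, -3.87 to -2.82), and *Itga1* at 4.80 against 17.9 CPM (-1.90, -2.62 to -1.18). *Il7r*, the interleukin 7 receptor, was at 13.8 CPM in Ly49+ NK, 99.6 CPM in Ly49-negative, 63.7 CPM in one-UMI and 13.1 CPM in *Gzmc*-high cells. A thinned *Il7r* UMI was found in 1.62% (1.01 to 2.47) of Ly49+ NK and 11.9% (8.86 to 15.6) of Ly49-negative cells, 3.31% and 19.6% before thinning. *Zfp683* (Hobit), which marks resident cells in some tissues, had 0 UMIs in both.

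**Figure D3:**
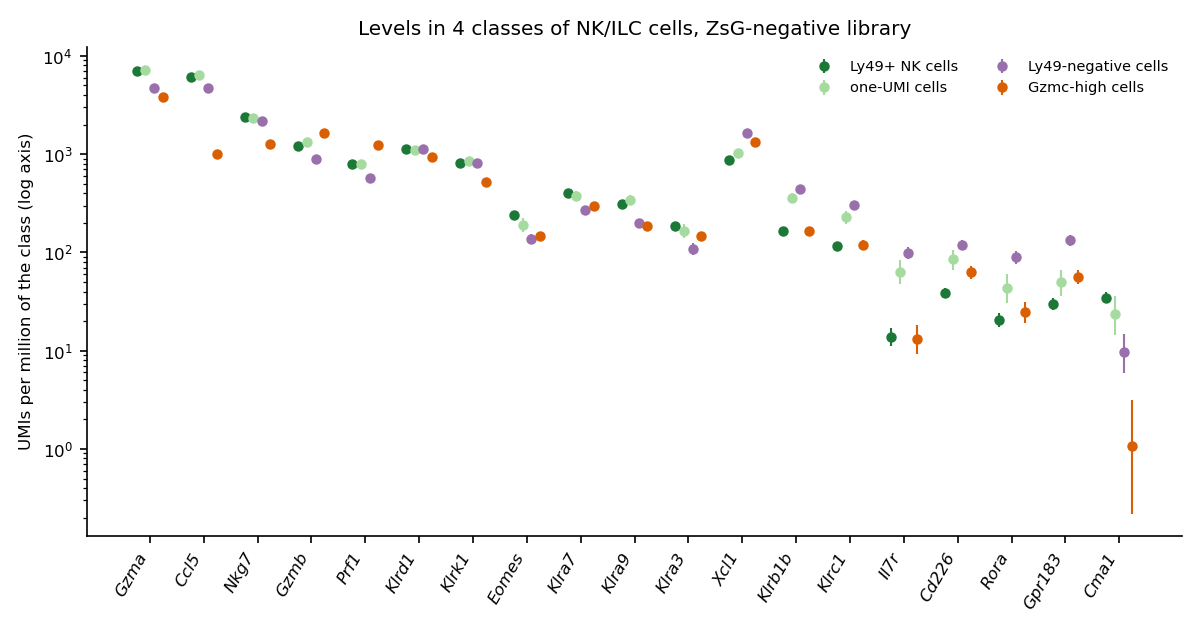
Levels of 19 genes (x axis) in CPM of the class (y axis, log scale) in the 4 classes of NK/ILC cells of the ZsG-negative library; points are CPM of summed cells and lines exact Poisson 95% intervals (counting error only). Ly49+ NK cells were above Ly49-negative cells for *Gzma*, *Ccl5*, *Eomes* and *Cma1* and below them for *Xcl1*, *Klrb1b*, *Klrc1*, *Il7r*, *Cd226*, *Rora* and *Gpr183*.

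Among transcription factors, *Eomes* was at 238 CPM in Ly49+ NK, 190 CPM in one-UMI, 138 CPM in Ly49-negative and 147 CPM in *Gzmc*-high cells, a log2 ratio of 0.66 (0.54 to 0.79) over all others. *Tbx21* (T-bet), which NK cells and ILC1 both need, was at 73.5 and 93.3 CPM in Ly49+ NK and Ly49-negative cells, a log2 ratio of -0.34 (-0.59 to -0.10). *Zeb2*, a factor of late NK maturation, and *Klf2*, which holds lymphocytes in circulation, differed from Ly49-negative cells by 0.30 (0.06 to 0.56) and 0.32 (0.14 to 0.51). *Rora* (20.5 against 89.0 CPM) and *Ikzf2*, the gene of Helios (59.2 against 135 CPM), were past 2-fold lower than in Ly49-negative cells. Of 25 counted factors, 0 were higher and 2 lower than in all others, with a median of 0.18.

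Few homing and stage genes were past 2-fold from Ly49-negative cells, and more from *Gzmc*-high cells. Over Ly49-negative cells, 1 of 20 homing genes was higher past 2-fold, *Ccr7*, the lymph node homing receptor (30.3 against 11.1 CPM). Of 14 counted genes of the mature NK stage 1 was higher and 1 lower (median 0.35), and of 13 of the immature stage 0 were higher and 1 lower (median -0.14). Over *Gzmc*-high cells, 7 of 20 homing genes were higher and 0 lower, with a median of 0.74, where 6.63% of all genes were higher and 4.40% lower and the median of all genes was 0.09. For the mature stage these counts were 5 and 1 of 14 (median 0.41), and for the immature stage 4 and 1 of 13 (median 0.92). Over the same cells, 5 of 8 monocyte and macrophage genes (median 3.16) and 3 of 6 plasmacytoid dendritic cell genes (median 1.22) were higher. Their part in these counts was not tested. *Xcl1* was lower in Ly49+ NK cells than in each other class, at 864 CPM against 1038 CPM in one-UMI, 1623 CPM in Ly49-negative and 1331 CPM in *Gzmc*-high cells. *Ccl5* was at 6037 CPM against 4702 CPM in Ly49-negative and 996 CPM in *Gzmc*-high cells.

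Maturation of mouse NK cells runs from CD27+ to CD11b+ (*Itgam*) cells. After thinning, 376 of 1296 ZsG-negative Ly49+ NK cells (29.01%, 26.6 to 31.6) had a UMI of *Cd27* without *Itgam*, 103 (7.95%, 6.53 to 9.56) of *Itgam* without *Cd27*, 41 of both and 776 (59.9%) of neither. The shares with *Itgam* alone were 5.96% (3.81 to 8.81) in Ly49-negative cells and 16% (7.17 to 29.1) in the 50 ZsG-positive Ly49+ NK cells, which did not differ beyond counting error from 7.95%. Between the 103 and the 376 cells, 5189 genes could be compared, of which 3.51% were higher and 4.74% lower past 2-fold in the *Itgam* cells. *Gzma* was at 12820 against 6007 CPM (log2 1.09, 1.02 to 1.16), *Prf1* at 1301 against 574 CPM and *Ccl5* at 11345 against 5598 CPM. *Cma1* had 30 UMIs in the *Itgam* and 10 in the *Cd27* cells (3.45, 2.38 to 4.65), and *Klrg1* 13 and 7 (2.76, 1.33 to 4.33). *Zeb2* (1.48, 0.88 to 2.06) was higher and *Tcf7*, a factor of early stages (-0.68, -1.35 to -0.06), lower in the *Itgam* cells, while *Eomes* (0.10, -0.36 to 0.54) and *Klra7* (-0.04, -0.41 to 0.30) did not differ beyond counting error. *Lyz2* was at 408 against 113 CPM, and the part of myeloid RNA in these values was not tested.

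Cell cycle genes were low in Ly49+ NK cells. After thinning, at least 2 UMIs of the 24 cell cycle genes together were found in 1.70% (1.07 to 2.56) of ZsG-negative Ly49+ NK cells, 2.59% of Ly49-negative, 3.51% of one-UMI and 21.1% (15.8 to 27.2) of *Gzmc*-high cells, and in 25.8% of T cells. Before thinning the shares were 4.85%, 4.91%, 5.26%, 39.0% and 37.7%. Per gene, 15 of 24 cell cycle genes were lower than in all others (median -1.70), where 2.84% of all genes were lower. Over Ly49-negative cells 6 of 23 were lower (median -0.85), where 1.12% of all genes were. Over *Gzmc*-high cells 20 of 24 were lower (median -2.27), where 4.40% of all genes were. None of the cell cycle genes was higher. *Mki67*, a marker of cycling cells, was at 38.7 CPM in Ly49+ NK, 84.6 CPM in Ly49-negative and 209 CPM in *Gzmc*-high cells. Of the 14 glycolysis genes, 7 were lower than in *Gzmc*-high cells (median -1.01), where 4.40% of all genes were lower. Over Ly49-negative cells 0 were lower (median -0.07), where 1.12% of all genes were.

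Type I interferon response genes were level with the pooled other NK/ILC cells, 0 of 25 past 2-fold, and over Ly49-negative cells 0 of 25 were higher and 4 lower past 2-fold, with a median of -0.39, where 1.12% of all genes were lower. These 4 antiviral genes were *Ifit1*, *Ifit2*, *Ifit3* and *Rsad2*. *Isg15*, a ubiquitin-like protein of this response, was at 104 CPM against 194 CPM in Ly49-negative cells, a log2 ratio of -0.89 (-1.07 to -0.71). Markers of plasmacytoid dendritic cells, known producers of interferon, differed in the same direction. All 8 had UMIs in both classes, they summed to 330 CPM in Ly49+ NK and 459 CPM in Ly49-negative cells with *Bst2* first (146 and 208 CPM), and 0 were higher and 3 of 7 counted lower. Among them were *Siglech* at 6.99 against 23.2 CPM and *Klk1* at 0.582 against 10.2 CPM. Over *Gzmc*-high cells the direction was the other way. There 6 of 25 interferon genes were higher and 0 lower (median 0.51), where 6.63% of all genes were higher. Of 6 counted plasmacytoid markers 3 were higher and 0 lower (median 1.22). The part of these markers in the interferon genes was not tested.

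The 15 genes with the highest and the 15 with the lowest ratios, among genes found in at least 5% of the cells of 1 side, were read beside each class alone. The granzymes of the *Gzmc* cluster, with a median of -5.77 over all others, are not among these 15 lowest genes. Higher in Ly49+ NK cells were, after *Cma1* and *Slamf6*, the sialic acid hydroxylase gene *Cmah* (23.4 CPM against 13.1 CPM in Ly49-negative and 3.91 CPM in *Gzmc*-high cells), the receptor tyrosine kinase gene *Ret* (22.1 against 12.1 and 4.62 CPM) and the cholesterol exporter gene *Abcg1* (18.05 against 13.1 and 1.78 CPM). The other 10 were *Rasl11b*, *Gm28347*, *Adgrl4*, *Rap1gap2*, *Frat1*, *Utp14b*, *Tef*, *Pex5*, *Acsl3* and *Gprin3*, with log2 ratios between 1.15 and 1.40. All 15 were also higher than in Ly49-negative cells alone, with intervals that held 0 for *Rasl11b*, *Abcg1*, *Rap1gap2* and *Tef*. Of the 15 lowest genes, *Krt83* differed most from the Ly49-negative cells, at 1.89 CPM against 42.1 CPM there. Among the same 15, *Ccdc184* (3.35 against 97.3 CPM), *Myo10* (3.06 against 58.3 CPM) and *Spp1*, the gene of the cytokine osteopontin (59.7 against 907 CPM), differed most from the *Gzmc*-high cells. The granzymes of the *Gzmc* cluster had a median of -6.70 over those cells. The others of the 15 lowest were *Tcrg-C4*, *Cxcr6*, *Sema6d*, *Pdgfa*, *AA467197*, *Hmmr*, *Cd200r1*, *Ccne1*, *Pxdc1*, *Kif22* and *Cep55*, down to -3.40 for *Tcrg-C4*, a segment of the gamma T cell receptor.

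**Figure D4:**
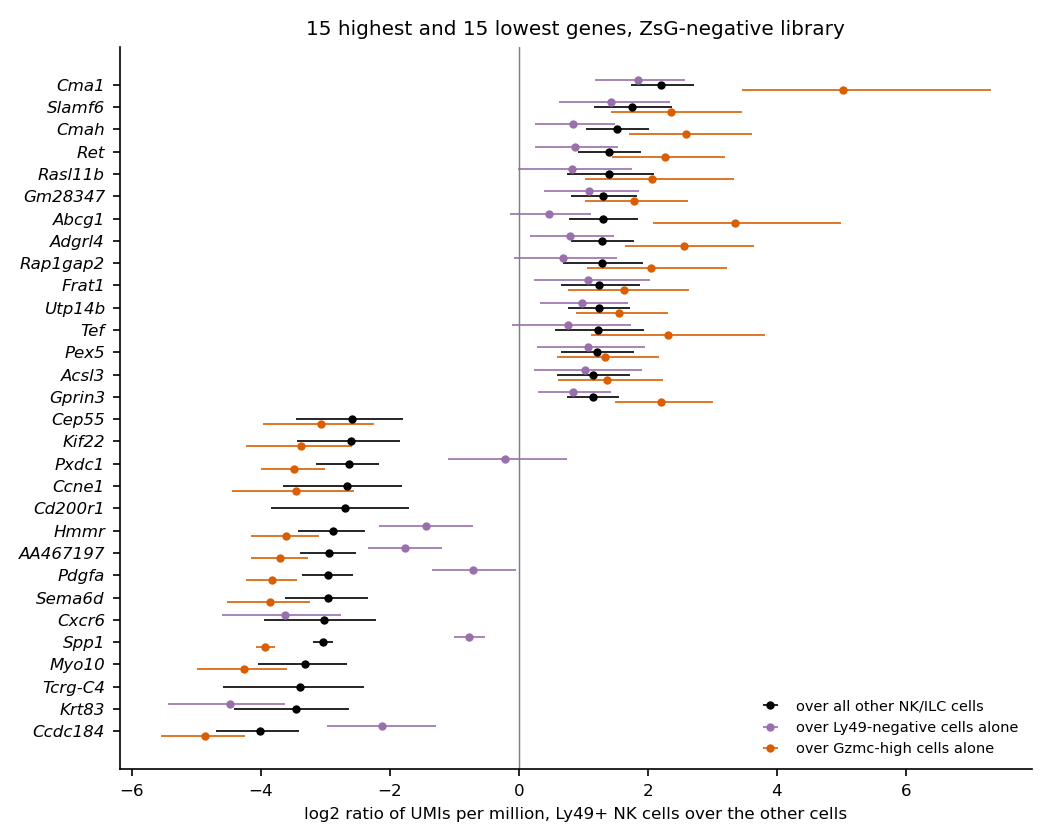
log2 ratio of CPM (x axis) for the 15 highest and 15 lowest genes (y axis), Ly49+ NK cells over all other NK/ILC cells (black), over Ly49-negative cells (purple) and over *Gzmc*-high cells (orange), ZsG-negative library; lines are exact 95% intervals (counting error only), and a colour is missing where the gene had fewer than 50 UMIs in that pair. Among the genes shown, the highest over all others was *Cma1* at 2.21 and the lowest *Ccdc184* at -4.01. Most of the low genes shown were farther from 0 over *Gzmc*-high cells. The granzymes of the *Gzmc* cluster, with a lower median of -5.77 over all others, are not shown.

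Transcripts of other cell types were few in ZsG-negative Ly49+ NK cells, with exceptions. The 12 T cell genes summed to 893 CPM against 5694 CPM in T cells, of which *Trbc1* made up 547 CPM and *Trbc2* 228 CPM, with *Cd3e* at 2.77 CPM and *Cd8a* at 2.62 CPM. *Trbc1* was at 495 CPM in T cells, so the level in Ly49+ NK cells was no lower, while *Trac* was at 25.03 against 495 CPM. The 8 B cell genes summed to 80.2 CPM (*Ighm* 76.1 CPM), with 4 of 8 at 0, among them *Cd79a*. The 7 neutrophil genes summed to 1.75 CPM. The 18 monocyte and macrophage genes summed to 603 CPM, with *Lyz2* first at 253 CPM. *Ly6c2* made up 169 CPM of this sum, and was at 655 CPM in T cells of this library. Of the 8 counted genes of this list, 3 were past 2-fold higher than in other NK/ILC cells. These were *Apoe*, *Chil3* and *Cxcl9*, and they came from few cells, *Apoe* from 23 of 1298. The UMIs of *Lyz2* were uneven too, with 92.6% of them in 65 cells. Without the 14 cells with at least 20 UMIs of 6 myeloid genes (named below, *Lyz2* among them) *Lyz2* was at 30.1 CPM. At least 3 UMIs of 7 macrophage genes were found in 40 of 1298 cells (3.08%). Without NK/ILC cells with at least 3 such UMIs, 55 of the 70 higher and 238 of the 259 lower genes were still past 2-fold. Without those with at least 20 UMIs of the 6 myeloid genes, these were 62 and 252.

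In the ZsG-positive library, 50 Ly49+ NK cells were set against 34 others, and 1106 genes could be counted, of which 10 (0.904%) were higher and 46 (4.16%) lower past 2-fold. *Klra7* (log2 2.28, 1.51 to 3.14) and *Klri2* (2.55, 1.40 to 3.93) were among the higher genes, and *Klrc1* was lower (-1.48, -2.36 to -0.65). *Gzma* was at 0.79 (0.64 to 0.94), *Ccl5* at 0.90 (0.74 to 1.06), *Klrb1b* at -0.84 (-1.56 to -0.14) and *Xcl1* at -0.80 (-1.17 to -0.43). For *Gzma*, *Ccl5*, *Klrc1*, *Klrb1b* and *Xcl1* the direction was that of the ZsG-negative library. The others were not made up alike, with 213 *Gzmc*-high cells of 771 in the ZsG-negative and 2 of 34 in the ZsG-positive library. *Klra9* (-0.16, -0.89 to 0.58) and *Eomes* (0.38, -0.43 to 1.22) did not differ beyond counting error in the ZsG-positive library. In sum the other cells held more macrophage RNA, most of it in few cells. The 18 macrophage genes summed to 3435 CPM in them and to 1114 CPM in Ly49+ NK cells, with *Lyz2* first in both (972 and 323 CPM), and all 5 counted were lower in Ly49+ NK cells past 2-fold (median -2.24). The medians per cell were close, at 4.5 UMIs of these genes in the others and 4 in Ly49+ NK cells. At least 20 UMIs of the 6 myeloid genes were found in 4 of the 19 Ly49-negative and 2 of the 50 Ly49+ NK cells. Without them, 881 genes could be counted, of which 10 were higher and 19 lower, and of the macrophage genes 2 could be counted and 1 was lower (median -0.71), while *Klra7* was at 2.36, *Klri2* at 2.45, *Klrc1* at -2.09, *Gzma* at 0.62 and *Ccl5* at 0.78.

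The second comparison asked how Ly49+ NK cells differed between the ZsG gates. They made up 27.6% (26.3 to 28.9) of kept cells in the ZsG-negative and 1.21% (0.901 to 1.60) in the ZsG-positive library, a log2 ratio of -4.51 (-4.95 to -4.10). That ratio was -0.75 (-1.39 to -0.17) without cells with at least 3 macrophage UMIs, as macrophages then leave the denominator. It was -6.79 (-7.92 to -5.86) without any CD3 or C1q UMI, from 9 ZsG-positive cells. Within the NK/ILC cells the log2 ratio of the shares of Ly49+ NK cells was -0.08 (-0.51 to 0.33). That of Ly49-negative cells was 0.27 (-0.47 to 0.94), that of one-UMI cells 0.90 (-0.03 to 1.72), and that of *Gzmc*-high cells, from 2 ZsG-positive cells, -2.11 (-5.17 to -0.24). The gates and the number of cells loaded set the shares of kept cells, so the fall cannot be told apart from the composition of the gates. A lower share of Ly49+ NK cells thus went along with all NK/ILC cells, and their share within NK/ILC cells was not detectably different at this depth.

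Between the libraries, ZsG-positive Ly49+ NK cells had less *Gzma*, *Gzmb* and *Xcl1* in sum, more of the immediate early genes *Fos*, *Fosb* and *Egr1*, and higher levels of several macrophage and MHC class II genes, in part from 1 or 2 cells. Of 9589 genes with at least 20 UMIs, 666 (6.95%) were higher and 729 (7.60%) lower past 2-fold, with a median log2 ratio of -0.01. The counting interval held 0 for 433 of the 666 (65.02%) and 620 of the 729 (85.05%), and the lower genes had a median of 1 UMI in the ZsG-positive cells, so most of these calls are within counting error. Among 1356 genes with a mean of at least 100 CPM, 30 were higher and 5 lower, a limit chosen after seeing the data.

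Among the Ly49 receptor genes, *Klra7* was at 402 CPM in ZsG-negative and 439 CPM in ZsG-positive Ly49+ NK cells (log2 0.13, -0.18 to 0.42). *Klra3* was at 186 and 236 CPM (0.34, -0.09 to 0.75), *Klra1* at 105 and 166 CPM (0.67, 0.14 to 1.15), and *Klra9* at 308 and 162 CPM (-0.93, -1.46 to -0.45). The 7 counted Ly49 genes had 0 past 2-fold in either direction, where 6.95% of all genes were higher and 7.60% lower, so that these few genes are not set apart by their count. *Gzma* was at 6945 and 5332 CPM (-0.38, -0.47 to -0.30) over the summed cells, while its median per cell was 6067 and 6311 CPM. *Gzmb* was at 1208 and 841 CPM (-0.52, -0.74 to -0.31) and *Prf1* at 790 and 601 CPM (-0.40, -0.66 to -0.15). Of 19 granule genes, 0 were higher and 2 lower past 2-fold (median -0.31), *Serpinb9b*, a granzyme inhibitor gene (-1.82, -3.44 to -0.58), and *Cma1*, which had 1 UMI in ZsG-positive cells (-2.91, -8.22 to -0.41). *Xcl1* was at 864 and 494 CPM (-0.81, -1.10 to -0.53) over the summed cells, while its median per cell was 310 and 277 CPM. *Il12rb2*, a chain of the interleukin 12 receptor, was at 101 and 32.3 CPM (-1.65, -2.97 to -0.60).

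Immediate early genes, which are switched on within minutes of a stimulus or of tissue handling, were higher in 6 of 20 cases and lower in 0, with a median of 0.39. Of all genes, 6.95% were higher and 7.60% lower. *Fos* was at 180 CPM in ZsG-negative and 462 CPM in ZsG-positive Ly49+ NK cells, a log2 ratio of 1.36 (1.05 to 1.65), *Fosb* at 57.8 and 217 CPM, and *Egr1* at 44.5 and 189 CPM. After thinning, *Fos* had a UMI in 23.5% (21.2 to 25.9) of ZsG-negative and 54% (39.3 to 68.2) of ZsG-positive Ly49+ NK cells, 38.8% and 72% before, and among T cells in 18.2% and 39.1%. *Cd69*, an early activation and retention gene, was at 66.5 and 208 CPM (1.64, 1.17 to 2.09). The same genes were higher in the other NK/ILC cells and in T cells of the same libraries, *Fos* by log2 ratios of 2.18 and 2.65, *Egr1* by 2.46 and 2.57, and *Cd69* by 1.18 and 0.40. Of 21 immediate early genes, 10 were past 2-fold higher in each of these classes, where 10.1% (other NK/ILC cells) and 6.37% (T cells) of all genes were. The ZsG-positive library consisted mostly of macrophages, whose C1q-positive cells (2520 cells) had *Fos* at 2257 CPM.

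The 10 highest ratios between the libraries were those of *Ifitm1*, *H2-Eb1*, *Ccl2*, *Ccl8*, *Ifi205*, *H2-Ab1*, *H2-Aa*, *Fcgr1*, *Aif1* and *Cd300c2*, from 8.42 for *Ifitm1* to 3.91 for *Cd300c2*. Most of these genes are known from macrophages or from MHC class II presentation. Of 11 counted macrophage genes, 5 were higher and 0 lower (median 1.27), where 6.95% of all genes were higher and 7.60% lower. In other NK/ILC cells 11 of 12 were higher and 0 lower (median 3.54), where 10.1% of all genes were higher and 7.02% lower. In T cells 14 of 15 were higher and 0 lower (median 3.81), where 6.37% of all genes were higher and 3.58% lower. *Ccl2*, a monocyte chemoattractant, was at 3.78 and 157 CPM (5.38, 4.60 to 6.17) and had a UMI in 13 of 1298 and 29 of 50 Ly49+ NK cells. *Cd74*, the MHC class II invariant chain, was at 96.5 and 1391 CPM, but 210 of its 301 ZsG-positive UMIs were in 1 cell. After thinning, *Cd74* had a UMI in 64% (49.2 to 77.1) of ZsG-positive Ly49+ NK cells and 52.7% (44.9 to 60.4) of the T cells of that library, and *Lyz2*, the macrophage lysozyme, in 54% (39.3 to 68.2) and 49.7% (41.9 to 57.5). In the ZsG-negative library they were 4.78% and 7.95% in Ly49+ NK cells and 5.84% and 7.14% in T cells. Before thinning, 84% and 74% of the ZsG-positive Ly49+ NK cells had a UMI. T cells are shown beside them as another lymphocyte class, chosen by at least 3 CD3 UMIs, no *Ncr1* or *Klrb1c* UMI and at most 2 C1q UMIs. No other macrophage gene was limited in them. The medians were 3594.5 UMIs in ZsG-positive Ly49+ NK cells and 9996 in T cells, and 85.8% of these T cells had at least 3 UMIs of 7 macrophage genes, as did 52% of these Ly49+ NK cells (26 of 50). The 18 macrophage genes summed to 603 and 1114 CPM in Ly49+ NK cells and to 24408 CPM in ZsG-positive C1q-positive cells. The difference between the libraries, as a percent of the C1q-positive level, was 0.928% for *Lyz2*, 2.90% for *C1qa*, 14.7% for *Cd74*, 12.5% for *Fos* and 14.1% for *Isg15*. Without the 16 cells with at least 20 UMIs of 6 myeloid genes it was 4.35%, 3.15%, 4.65%, 14.9% and 0.668% in the same order, and *Lyz2* was then at 30.1 CPM in ZsG-negative and 360 CPM in ZsG-positive Ly49+ NK cells. Values of *Lyz2* and *Cd74* without the 16 cells follow in part from the removal, as both are among the 6 genes. The *C1qa* values follow in part from the choice of cells. Ly49+ NK cells had at most 2 C1q UMIs and C1q-positive cells at least 3. Not all genes of the macrophage list were higher. *Ly6c2*, known from inflammatory monocytes, was at 169 CPM in ZsG-negative and 87.8 CPM in ZsG-positive Ly49+ NK cells (151 and 102 CPM without those 16 cells). It was also at 655 CPM in ZsG-negative T cells, against 905 CPM in ZsG-positive C1q-positive cells, so it was not particular to myeloid cells here. *Chil3* (12.95 CPM) and *Adgre1*, the gene of F4/80 (0.728 CPM), had 0 UMIs in the ZsG-positive cells, where 3 UMIs amount to 13.9 CPM, so that no fall could be seen at this depth. How much of the rise of any of these genes came with macrophage RNA was not tested.

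Several large ratios rested on a pair of ZsG-positive cells with at least 20 UMIs of 6 myeloid genes (*Cd74*, *H2-Aa*, *H2-Ab1*, *H2-Eb1*, *Lyz2* and *Apoe*). The first of these cells had 14287 UMIs, with 210 of *Cd74*, 140 of *H2-Aa*, 106 of the interferon-induced gene *Ifitm1*, 41 of *Isg15*, 33 of *Gzma* and 1 of *Ncr1*. The second had 16136 UMIs, with 20 of *Mki67*, 18 of the mitotic gene *Ube2c* and 17 of *Klra8*. Both were far above the median of 3594.5 UMIs. Without them and the 14 such cells of the ZsG-negative library, the log2 ratio of *Ifitm1* moved from 8.42 to 2.85 (-0.39 to 5.08) and that of *Isg15* from 1.41 to 0.12 (-0.62 to 0.78). That of *Mki67* moved from 1.33 to -2.88 (-8.19 to -0.39), with 1 UMI in the 48 remaining ZsG-positive cells. Past 2-fold higher were 7 of 25 interferon genes and 10 of 24 cell cycle genes (medians 0.86 and 0.60), where 6.95% of all genes were. Both counts include the cells with at least 20 UMIs of 6 myeloid genes. The log2 ratio of *Ube2c* moved from 2.30 to 0.02 (-1.88 to 1.41) without these cells. *Ifi27l2a*, an interferon-induced mitochondrial protein gene (2.92 without them), *Fos* (1.72), *Egr1* (2.38), *Cd69* (1.84) and *Ccl2* (6.75) were as high or higher without them, and *Gzma* (-0.23), *Gzmb* (-0.38) and *Xcl1* (-0.68) stayed lower. *Eomes*, at -0.56 (-1.08 to -0.07) over all cells, was at -0.49 (-1.04 to 0.02) and *Prf1* at -0.25 (-0.51 to 0.01) without them, with intervals that held 0.

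**Figure D5:**
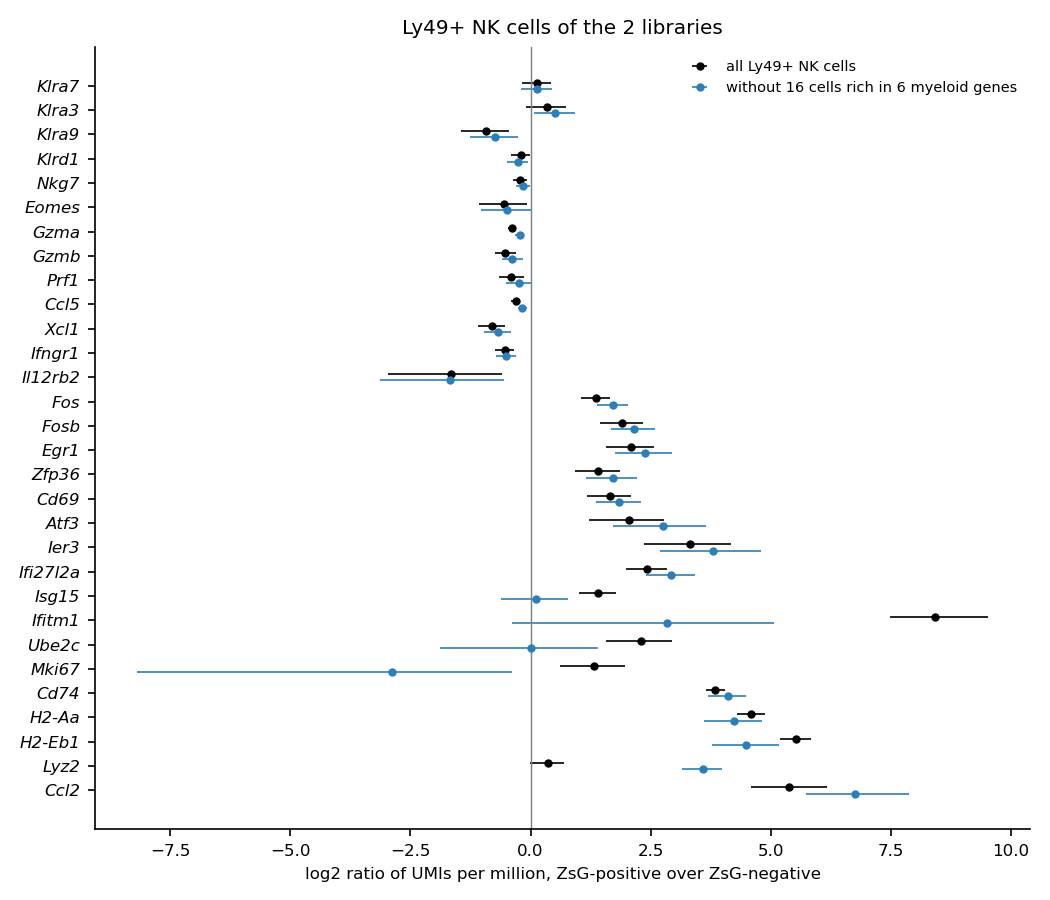
log2 ratio of CPM (x axis), ZsG-positive over ZsG-negative Ly49+ NK cells, for 30 genes (y axis), over all cells (black) and without the 16 cells with at least 20 UMIs of 6 myeloid genes (blue); lines are exact 95% intervals (counting error only). The interval of *Isg15* (0.12) and *Ube2c* (0.02) held 0 without these cells and *Mki67* fell below 0, from 1 ZsG-positive UMI. *Fos*, *Egr1*, *Cd69*, *Cd74* and *Ccl2* stayed above 0. *Cd74*, *H2-Aa*, *H2-Eb1* and *Lyz2* are among the 6 genes, so their blue values follow in part from the removal.

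The genes with the lowest ratios between the libraries were *Pigp*, *Rnf8*, *Adam10*, *Prorsd1*, *Synj2bp*, *Txndc11*, *Pde4d*, *Cma1*, *Fam92a* and *Fbxl12*. Each had 1 UMI in the ZsG-positive Ly49+ NK cells, or 2 for *Synj2bp*, so that *Pigp*, for instance, was at -3.44 with an interval from -8.75 to -0.95. Such values were near the limit of what 50 cells can show. Of 12 melanocyte genes, markers of tumor RNA, 2 had UMIs in ZsG-negative and 3 in ZsG-positive Ly49+ NK cells, summing to 10.04 and 13.9 CPM. *Slc24a5* made up 9.75 CPM of the first sum, with *Pmel* and *Dct* at 1 UMI each in ZsG-positive and 0 in ZsG-negative Ly49+ NK cells, and the pigment genes *Mlana*, *Tyr* and *Tyrp1* at 0 in both.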

How the data were processed

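The UMI counts were deposited by the authors as 1 matrix of 32285 genes over both libraries (10x 3′ chemistry), made with Cell Ranger (6.1.2 in the submitters' processing notes, 7.0.0 in the matrix header) on mm10 and aggregated over libraries. No source used here says whether the aggregation evened out depth. The barcode suffix gave the library, and 0 columns of per-sample values were unmapped. A T cell sort of the same study was not used here.

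Cells with at least 1000 and fewer than 6000 genes and under 10% mitochondrial UMIs were kept. T cells had at least 3 CD3 UMIs, no *Ncr1* or *Klrb1c* UMI and at most 2 C1q UMIs. C1q-positive cells had at least 3 C1q UMIs. Raw counts were summed over the cells of a class and library. Log2 ratios carry exact conditional, sums exact Poisson and shares exact binomial (Clopper-Pearson) 95% intervals. With 1 library per gate no test was run. A gene was counted with at least 50 UMIs over both sums (20 between ZsG gates), and past 2-fold means a log2 ratio beyond 1. A fold against 0 UMIs was set at the limit of 3 UMIs. The members and gene lists were chosen with earlier results of these data known. Named genes were those of the rule, list genes with most UMIs or with the role described, the 25 with most UMIs, and the 15 highest and lowest ratios (10 between gates) among genes found in at least 5% of the cells of 1 side. The granzymes of the *Gzmc* cluster are not among the 15 lowest. Other list genes were named after their values were seen.

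Scrublet (scanpy 1.11.5) called 1 of 4699 ZsG-negative and 0 of 4123 ZsG-positive cells doublets, which is too few to rely on, so none were removed. Positions are GENCODE M21 on GRCm38, by gene ID. Sums and intervals were computed with pandas 2.3.3, scipy 1.17.1, numpy 2.4.6 and anndata 0.12.19 in Python 3.11.15 and drawn with matplotlib 3.10.9. TMM scaling by edgeR 4.0.16 in R 4.3.3 was an alternative only. The comparisons were tested on simulated counts. Alternatives were other limits on UMIs, other scalings, thinning, stricter limits on other cell types' UMIs, and other comparison cells.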

Additional observations from a re-analysis of the deposited data

Results flagged for a closer look

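Among 233 list genes with a value in both libraries, 1 was past 2-fold in opposite directions with both intervals off 0. *Cxcl9*, an interferon-induced chemokine gene of macrophages, had a log2 ratio of Ly49+ NK over other NK/ILC cells of 3.82 in the ZsG-negative and -2.24 in the ZsG-positive library, and 141 of its 152 UMIs in ZsG-negative Ly49+ NK cells were in 1 cell. Among 404 list genes compared between the gates, the mitotic gene *Ube2c* had a log2 ratio of ZsG-positive over ZsG-negative of 2.30 in Ly49+ NK cells and -4.24 in other NK/ILC cells. Of its 22 UMIs in ZsG-positive Ly49+ NK cells, 18 were in 1 cell, and the ratio was 0.02 without cells rich in myeloid genes. The other NK/ILC cells held 213 *Gzmc*-high cells of 771 in the ZsG-negative and 2 of 34 in the ZsG-positive library. Neither the difference in *Cxcl9* nor that in *Ube2c* was tested.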

How the results depend on the processing

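Neither library has a replicate, so no sample could be left out. No paired analysis was possible because each gate gave 1 library and no pair could be repeated. Both gates were sorted from CD45+ cells of the ZsG tumors. Against other NK/ILC cells, 70 genes were higher and 259 lower past 2-fold, of 9124 counted. With at least 100 UMIs these counts were 31 and 168 of 7685, and with no minimum 650 and 948 of 15266. After thinning to 2000 UMIs they were 38 and 64 of 6607, and with thinning before the rule 14 and 40 of 5517. They were 66 and 94 of 8422 over Ly49-negative cells alone and 571 and 379 of 8606 over *Gzmc*-high cells alone. In the ZsG-positive library they were 10 and 46 of 1106. Over one-UMI cells alone, a comparison chosen after seeing the data, they were 190 and 53 of 8079. Of the 70 and 259 genes, 65 and 259 were still past 2-fold under TMM scaling and 35 and 189 with the mean of per-cell CPM. With thinning before the rule, *Frat1* was at -0.39, *Kif22* at 2.26 and *Apoe* at -1.52. *Klrg1* was at 0.20 over Ly49-negative and *Il7r* at 0.073 over *Gzmc*-high cells. Over one-UMI cells *Spp1* was at 0.57, *Sema6d* at 0.041, *AA467197* at 0.71 and *Ccne1* at 0.68. In the ZsG-positive library, where 2 of the 34 others were *Gzmc*-high cells against 213 of 771 in the ZsG-negative library, *Hmmr* was at 1.295. In that ZsG-positive library *Ret* and *Gprin3* were at -1.29, *Abcg1* at -2.61, and *Pex5* and *Apoe* at -0.87. The cause of these reversals was not tested.

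Between the gates, 666 genes were higher and 729 lower, of 9589 counted. At least 100 UMIs left 159 and 495 of 6167, and no minimum gave 1346 and 729 of 14355. A mean of at least 100 CPM, chosen after seeing the data, gave 30 and 5 of 1356. Without any CD3 or C1q UMI, 9 ZsG-positive Ly49+ NK cells remained, with 1376 and 340 of 9333 genes, *Isg15* at -0.89 and *Serpinb9b* at 0.047. The log2 ratio of shares was then -0.70 of NK/ILC cells and -6.79 of kept cells. *Mki67* was at -1.65 without cells with at least 3 macrophage UMIs and -2.88 without those with at least 20 UMIs of 6 myeloid genes (chosen after seeing the data). With the former left out, the share of kept cells was at -0.75, because macrophages then leave the denominator. With thinning before the rule *Isg15* was at -0.055. Over all named genes and alternatives, 691 values against other NK/ILC cells were close to the reported one, 282 moved and 15 reversed, and between the gates 457, 118 and 5. Depth limits the values of the 50 ZsG-positive cells, where 3 UMIs amount to 13.9 CPM.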
